A study of Mus musculus with 13 samples.

Results

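Ribosome-protected fragments (RPFs) were counted on the coding sequence (CDS) of 10 genes of maternal mRNA decay, Btg4, Cnot7, Cnot8, Cnot6l, Cnot6, Cnot1, Cnot2, Cnot3, Pabpn1l and Zfp36l2, out of 22442 genes in the Ribo-seq tables. The 10 genes are a list of deadenylases, complex subunits and adaptors, matched by Ensembl identifier. Their levels in these libraries were not used in the rule that chose them, but earlier results of these data were known. Ribo-seq sequences the short pieces of mRNA that ribosomes protect from RNase I, so an RPF count depends on the amount of an mRNA and on its translation at once. The 11 libraries comprise 3 of WT germinal vesicle (GV) oocytes, 3 of Nat10-ZcKO GV oocytes, 2 of WT metaphase II (MII) oocytes and 3 of Nat10-ZcKO MII oocytes, all on a C57BL/6J background. Nat10-ZcKO females carried a floxed and a deleted Nat10 allele with Zp3-Cre, a transgene that acts in growing oocytes only, so the granulosa cells of these females keep Nat10. The GV oocytes came from juvenile females primed with PMSG according to the methods, and the design text names tamoxifen for 3 days, which Zp3-Cre does not need. Superovulated oocytes, by the same methods, came from the oviducts of juvenile females given PMSG and then hCG. The source of the MII oocytes for Ribo-seq is not stated separately, so hormone treatment and collection site may differ with stage. The paper reports that most superovulated Nat10-ZcKO oocytes were arrested at metaphase I. In addition, 2 acRIP-seq libraries, 1 with an anti-ac4C antibody and 1 with IgG, were made from WT GV oocytes. No mRNA was counted from the same lysates in the files used here, so a change in mRNA amount and a change in its translation cannot be told apart, nor can fewer cells and less RNA per cell.

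A fully grown oocyte is transcriptionally silent and lives on mRNAs that it stored while it grew. When meiosis resumes, stored mRNAs are translated or removed, and removal starts with shortening of the poly(A) tail. The main deadenylase of the cytoplasm is CCR4-NOT, in which CNOT1 is the scaffold, CNOT2 and CNOT3 form a module at its C-terminal end, and a pair of nucleases does the work, CNOT7 or CNOT8 together with CNOT6 or CNOT6L. CCR4-NOT has to be brought to its targets: BTG4 binds CNOT7 and CNOT8 and is required for maternal mRNA clearance in mouse oocytes, PABPN1L is an oocyte poly(A)-binding protein that works with BTG4, and ZFP36L2 binds AU-rich elements. Several of the mRNAs for this machinery are themselves known to be stored and recruited to ribosomes during maturation.

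Recruitment of stored mRNAs is often tied to the cytoplasmic polyadenylation element (CPE), a U-rich stretch close to the poly(A) signal at the end of the mRNA. The last 100 bases of the annotated transcript were searched on the sense strand for the CPE letters TTTTAT or TTTTAAT and the signal letters AATAAA or ATTAAA, where a CPE and a signal may share bases; 9 of the 10 genes could be searched (Cnot8 could not). The transcript searched was the APPRIS principal one, or the longest of several, and other annotated ends were not searched. In these 9 genes no CPE shared bases with a signal. A CPE was present in 4 of the 9 and in 17.8% of 19924 protein-coding genes searched in the same way, and a poly(A) signal in 6 of the 9 and in 78.3% of those genes. The lines show 30 bases around the match, 5′ to 3′ on the mRNA strand, from GENCODE M21 transcripts on GRCm38, for the 4 genes with a CPE and for Cnot6l and Pabpn1l, of which more below; capitals mark the CPE and the signal.
Btg4: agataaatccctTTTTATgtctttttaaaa
Cnot7: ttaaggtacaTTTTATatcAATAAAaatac
Cnot1: aagatgtattgaTTTTATatatgtgagtac
Cnot3: atttatgAATAAAtagTTTTATatgacggc
Cnot6l: ttccctgtaggcAATAAAtggccattttgc
Pabpn1l: agaatgtaaattATTAAActtgaatatatt
In Btg4 (chr9:51119797-51119826, plus strand) the CPE starts 67 bases before the annotated end and no signal was found in the window. In Cnot7 (chr8:40493036-40493065, minus strand) CPE and signal start 20 and 11 bases before the end, 3 bases apart. Cnot1 (chr8:95719504-95719533, minus strand) holds a CPE 64 bases before the end without a signal, and in Cnot3 (chr7:3661075-3661104, plus strand) the CPE lies downstream of the signal. Cnot6l (chr5:96070340-96070369, minus strand) and Pabpn1l (chr8:122619473-122619502, minus strand) held a signal and neither CPE spelling. A match is a description of these letters, and it was present both in genes whose footprints rose and in Cnot1, whose footprints fell.

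The libraries held 4815 to 279464 counts on the CDS, so a count of 0 allows up to 10.7 to 623 CPM (counts scaled by the library total; the limit is 3 counts and, like every interval here, covers counting error only). Nat10 had 1 to 11 counts per library and its CPM overlapped between genotypes at both stages, so these counts do not check the deletion. The library labelled WT MII replicate 2 was the smallest by far, at 4815 counts, with 11 of 12 oocyte markers at 0. In Nat10-ZcKO GV replicates 1 and 2 the oocyte markers took 0.0142% and 1.43% of counts, against 5.34% to 10.7% in the other 4 GV libraries, and adipocyte or other stroma markers took 1.79% and 0.358%, against 0.0598% to 0.104%. In the 4 MII libraries other than WT replicate 2 the oocyte markers took 1.08% to 1.30% of counts, with at most 1 of the 12 at 0, and granulosa or cumulus markers 0.214% to 0.584%, against 0.237% to 0.462% in the 4 other GV libraries. Oocyte markers thus moved with stage, and their part in the stage differences was not tested. The main tests were run with all libraries and without these 3, which leaves 4 GV libraries (3 WT, 1 Nat10-ZcKO) and 4 MII libraries (1 WT, 3 Nat10-ZcKO), called the 8 libraries. Nothing in the labels says that libraries of a group came from separate mice, so the p-values measure the spread between these libraries, which may be technical.

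The question of the main comparison was how ribosome occupancy of the decay machinery differs between the GV stage and MII. In the edgeR fits given below, 5 genes of the list rose and 1 fell. Of all genes tested, 12.0% rose and 21.2% fell over 11 libraries, and 30.4% and 33.9% over the 8 libraries. Btg4, Cnot7, Cnot8 and Pabpn1l rose 9.02-fold to 14.8-fold in mean CPM over the 8 libraries and Cnot6l rose 3.49-fold, while the scaffold Cnot1 fell to 0.273 of its GV level. These means mix the genotypes unequally, with mostly WT at GV and mostly Nat10-ZcKO at MII. Within WT, with MII replicate 1 alone, the same 4 genes rose 8.48-fold to 10.1-fold. Within Nat10-ZcKO, with GV replicate 3 alone, they rose 18.7-fold to 93.4-fold. Cnot6l rose 3.85-fold in WT and 3.31-fold in Nat10-ZcKO, and Cnot1 fell to 0.225 and 0.516. All 10 genes together took 0.0310% to 0.0853% of the counts of the 4 GV libraries among the 8 and 0.243% to 0.559% of those of the 4 MII libraries.

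**Figure D1:**
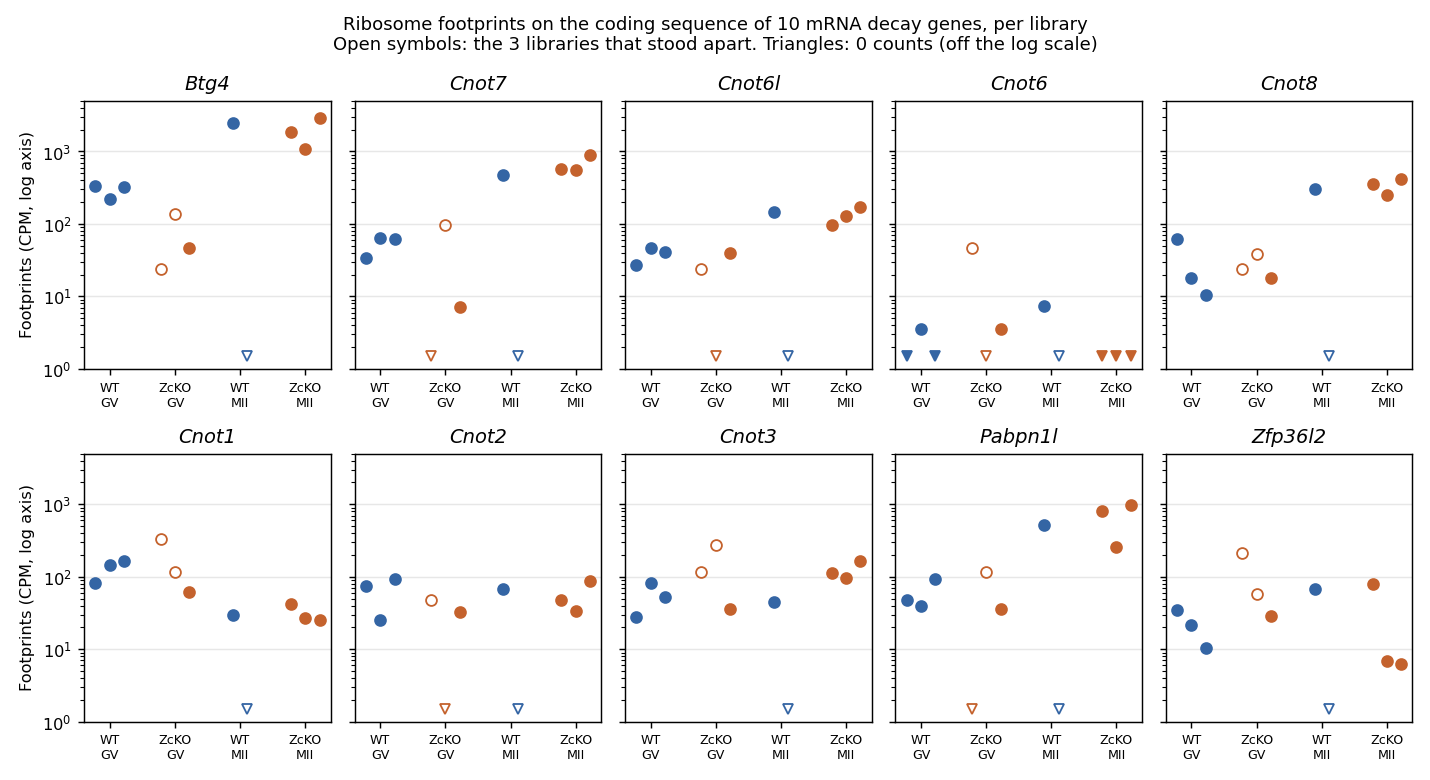
RPF levels of the 10 genes in CPM (log axis) by group; each point is 1 library, open symbols are the 3 libraries that stood apart, and triangles are libraries with 0 counts. Filled MII points lie above all filled GV points for Btg4, Cnot7, Cnot6l, Cnot8 and Pabpn1l, and below them for Cnot1.

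Btg4 (ENSMUSG00000032056.10, chr9:51060901-51119875) is the adaptor that links CCR4-NOT to maternal mRNAs. It had 330, 222 and 322 CPM in the WT GV libraries. The Nat10-ZcKO GV libraries had 23.6, 135 and 46.9 CPM. In MII it had 2499 CPM in WT replicate 1, 0 counts in WT replicate 2, and 1883, 1070 and 2855 CPM in Nat10-ZcKO. The lowest of the 4 MII libraries with counts was thus above the highest GV library of either genotype. The 0 came from WT MII replicate 2, whose own limit is 623 CPM. That limit is above all GV values of Btg4 but below the 1070 CPM of the lowest of the other 4 MII libraries. For Btg4, WT MII replicate 2 was therefore below the level of those 4, and the cause was not tested. Over the 8 libraries the mean rose from 230 ± 132 to 2077 ± 782 CPM (SD, n = 4 each), a 9.02-fold difference between groups of unlike genotype make-up. Counted per length as TPM (counts over CDS length, scaled to the same total in each library), Btg4 was the 19th highest gene of WT MII replicate 1 and 31st, 51st and 23rd in the Nat10-ZcKO MII libraries, against 206th to 346th in WT GV.

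Over all 11 libraries with genotype as a covariate, the log2 change of Btg4 was 3.67 (SE 1.17, adjusted p = 0.0111, edgeR), and over the 8 libraries it was 3.91 (SE 0.43, adjusted p = 6.1e-08, edgeR). In the fit of 11 libraries 5 genes of the list rose among the 8 that passed the filter on low counts, beside 12.0% of the 2991 genes tested, and 1 fell, beside 21.2%. In the fit of 8 libraries 5 rose among 9 tested, beside 30.4% of 3094 genes, and 1 fell, beside 33.9%. The median log2 change of all genes tested was -0.51 over 11 libraries (-0.86 with the size factors of DESeq2) and -0.14 over 8, and that of the tested genes of the list was 2.41 over 11 (2.03 with DESeq2) and 1.65 over 8. In CPM the 4 GV and 4 MII libraries did not overlap for 6 of the 10 genes. MII was above in 5, beside 25.9% of the 3500 genes with at least 50 counts in the 8 libraries, and below in 1, beside 27.0%. Cnot6 and Zfp36l2 had fewer than 50 counts there, so that share does not cover them, and their stages overlapped. Leaving out WT MII replicate 1 as well as the doubted libraries left Btg4, Cnot7, Cnot8 and Pabpn1l past the test, and so did leaving out any other of the 8, with adjusted p-values of at most 9.0e-05 (edgeR). The size moved more: without Nat10-ZcKO GV replicate 3 the log2 change was 3.21 for Btg4 and 3.19 for Cnot7. Without WT MII replicate 1 it was 5.18 and 6.25. The first of these 2 fits takes the stage change from WT alone and the second from Nat10-ZcKO alone. Each then has a lone library at 1 stage, so neither is separate from the fits within a genotype given below. Cnot8 and Pabpn1l stayed between 3.29 and 4.04 whichever of the 8 libraries was left out. From all 11 libraries, leaving out WT MII replicate 1 alone left 0 of the list past the test (Btg4 adjusted p = 0.152, edgeR). The library of 4815 counts was then the only WT MII library, and of all 3778 genes tested 0.847% rose and 5.08% fell. Without Nat10-ZcKO GV replicate 3 the list had 3 that rose and 1 that fell, beside 6.07% and 11.3% of 2768 genes. Btg4 was among those lost there (log2 change 3.29, adjusted p = 0.061, edgeR). With no filter on low counts, 0 of the 10 passed over all 11 libraries, where 264 of 13685 genes (1.93%) did (edgeR).

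**Figure D2:**
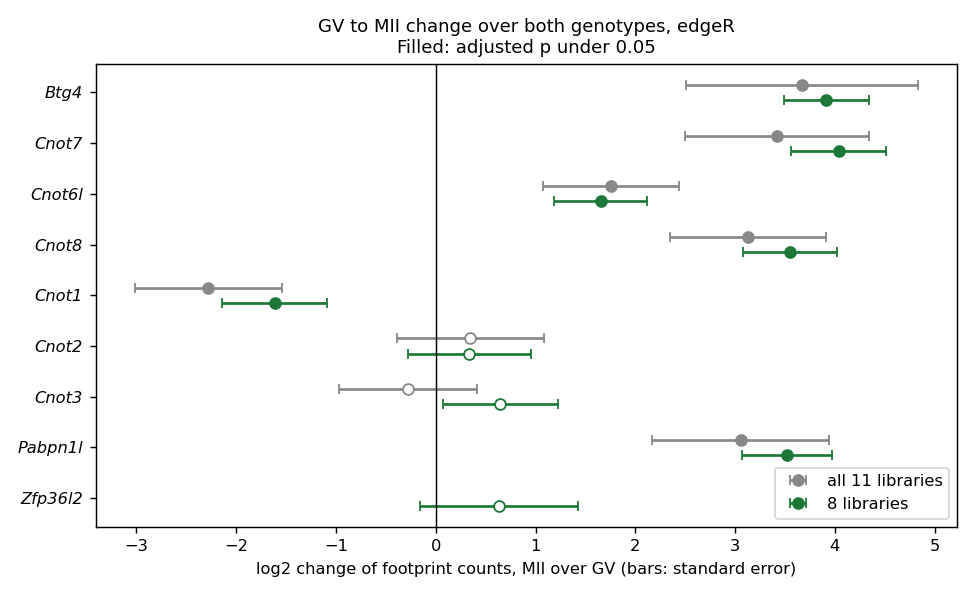
Log2 change of RPF counts from GV to MII for the genes of the list that could be tested, with standard errors, over all 11 libraries (grey) and over 8 libraries (green); filled points passed an adjusted p of 0.05. Btg4, Cnot7, Cnot8 and Pabpn1l lie above 3 on this scale in both fits, Cnot6l between 1.65 and 1.76, and Cnot1 below 0.

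The nucleases came next. Cnot7 (ENSMUSG00000031601.16, chr8:40492540-40515847), a nuclease of the CAF1 type and direct partner of BTG4, had 34.4, 64.4 and 62.4 CPM in WT GV. In Nat10-ZcKO GV it had 0 counts, 96.7 CPM and 7.22 CPM, the last of these from 2 counts in the deepest library of that group. In MII it had 475 CPM in WT replicate 1, 0 counts in WT replicate 2, and 575, 559 and 889 CPM in Nat10-ZcKO. The 4 MII libraries with counts were each at more than 4 times the highest GV library. The log2 change was 3.42 (SE 0.92, adjusted p = 0.00304, edgeR) over 11 libraries and 4.04 (SE 0.48, adjusted p = 2.1e-07, edgeR) over 8.

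Cnot8 (ENSMUSG00000020515.13, chr11:58104153-58118594) is the paralog of Cnot7 and can take its place in the complex. It had 61.9, 17.9 and 10.4 CPM in WT GV. In Nat10-ZcKO GV the values were 23.6, 38.7 and 18.0 CPM. In MII it had 304 CPM in WT replicate 1, 0 counts in WT replicate 2, and 356, 252 and 420 CPM in Nat10-ZcKO. Again no GV library reached the 4 MII libraries with counts, and GV values rested on 1 to 9 counts each. The log2 change was 3.13 (SE 0.79, adjusted p = 0.0014, edgeR) over 11 libraries and 3.55 (SE 0.47, adjusted p = 1.0e-06, edgeR) over 8.

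Of the CCR4-type nucleases, Cnot6l (ENSMUSG00000034724.18, chr5:96070333-96164171) held more footprints than its paralog Cnot6. It had 27.5, 46.5 and 41.6 CPM in WT GV. The Nat10-ZcKO GV libraries had 23.6, 0 and 39.7 CPM. MII values were 148 and 0 CPM in WT and 95.8, 129 and 169 CPM in Nat10-ZcKO, again with no overlap outside WT MII replicate 2. The rise was smaller than that of Cnot7 and Cnot8 in size, with a log2 change of 1.76 (SE 0.68, adjusted p = 0.0364, edgeR) over 11 libraries and 1.65 (SE 0.46, adjusted p = 0.0037, edgeR) over 8. Over 11 libraries the call was lost without WT GV replicate 1 or 3, Nat10-ZcKO GV replicate 3, WT MII replicate 1 or Nat10-ZcKO MII replicate 3, each in turn, with adjusted p-values from 0.0573 to 0.256 (edgeR). It was lost in the 8-library set without WT MII replicate 1 (log2 change 1.51, adjusted p = 0.0709, edgeR). Its paralog Cnot6 (ENSMUSG00000020362.13, chr11:49671503-49712723) had 0, 1 and 0 counts in WT GV, 2, 0 and 1 in Nat10-ZcKO GV, 1 and 0 in WT MII, and 0 in the 3 Nat10-ZcKO MII libraries. Cnot6 was below the filter in every fit that used a filter on low counts. Over 11 libraries without that filter it did not pass (edgeR), and at this depth no change could be seen.

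The scaffold went the other way. Cnot1 (ENSMUSG00000036550.16, chr8:95719451-95807464) had 82.5, 147 and 166 CPM in WT GV. The Nat10-ZcKO GV libraries had 330, 116 and 61.3 CPM. MII values were 29.7 and 0 CPM in WT and 42.6, 27.3 and 25.1 CPM in Nat10-ZcKO. Every MII library with counts was below every GV library, and those MII values rested on 4 to 8 counts. The log2 change was -2.28 (SE 0.74, adjusted p = 0.0122, edgeR) over 11 libraries and -1.61 (SE 0.53, adjusted p = 0.0106, edgeR) over 8. The call was lost in the 8-library set without Nat10-ZcKO GV replicate 3 (adjusted p = 0.0592, edgeR) and without WT MII replicate 1 (adjusted p = 0.161, edgeR), with the sign kept.

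Cnot2 (ENSMUSG00000020166.15, chr10:116485161-116581511) and Cnot3 (ENSMUSG00000035632.16, chr7:3645268-3661109), the NOT-module subunits, did not pass the test. Cnot2 had 25.1 to 93.6 CPM in WT GV, 0 to 47.2 CPM in Nat10-ZcKO GV, 66.7 and 0 CPM in WT MII and 34.1 to 87.7 CPM in Nat10-ZcKO MII, so the stages overlapped. Its log2 change was 0.35 (SE 0.74, adjusted p = 0.724, edgeR) over 11 libraries and 0.33 (SE 0.62, adjusted p = 0.642, edgeR) over 8. Cnot3 had 27.5 to 82.3 CPM in WT GV, 36.1 to 271 CPM in Nat10-ZcKO GV, 44.5 and 0 CPM in WT MII and 95.4 to 163 CPM in Nat10-ZcKO MII. Its log2 change was -0.28 (SE 0.69, adjusted p = 0.77, edgeR) over 11 libraries and 0.65 (SE 0.58, adjusted p = 0.329, edgeR) over 8, so the sign depended on the libraries used.

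The 2 other adaptors differed from each other. Pabpn1l (ENSMUSG00000069867.3, chr8:122619471-122622739), the oocyte poly(A)-binding partner of BTG4, had 48.1, 39.4 and 93.6 CPM in WT GV. In Nat10-ZcKO GV it had 0 counts, 116 CPM and 36.1 CPM. In MII it had 512 CPM in WT replicate 1, 0 counts in WT replicate 2, and 798, 259 and 971 CPM in Nat10-ZcKO. All MII libraries with counts were above all GV libraries, and Nat10-ZcKO MII replicate 2 was the lowest of them, as it was for Btg4. The log2 change was 3.06 (SE 0.89, adjusted p = 0.00567, edgeR) over 11 libraries and 3.52 (SE 0.45, adjusted p = 6.6e-07, edgeR) over 8. Zfp36l2 (ENSMUSG00000045817.8, chr17:84183931-84187947), which brings CCR4-NOT to AU-rich mRNAs, had 10.4 to 34.4 CPM in WT GV, 28.9 to 212 CPM in Nat10-ZcKO GV, 66.7 and 0 CPM in WT MII and 79.8, 6.82 and 6.26 CPM in Nat10-ZcKO MII. Its stages overlapped. It had 1 count in each of the 2 lowest MII libraries with counts, was below the filter on low counts in the fit of 11 libraries. It did not pass over the 8 libraries (log2 change 0.63, SE 0.79, adjusted p = 0.488, edgeR), nor over all 11 at a minimum of 50 counts in total, where the sign was the opposite (log2 change -0.29, adjusted p = 0.775, edgeR).

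Ratios within a library do not depend on the scaling between libraries. Per length, the TPM of Cnot7 was 3.57, 3.77 and 3.22 times that of Cnot1 in the WT GV libraries and 1.01 times in Nat10-ZcKO GV replicate 3, with 0 and 7.15 times in the other 2. In MII it was 137 times in WT replicate 1 and 116, 176 and 304 times in Nat10-ZcKO. The 4 MII ratios were above all 6 GV ratios, and the GV ratios of Nat10-ZcKO rest on 0, 5 and 2 counts of Cnot7. This separation follows from the levels given above, where Cnot7 rose and Cnot1 fell, and adds no separate support. Cnot8 over Cnot1 went from 0.523 to 6.28 in the 4 GV libraries among the 8 to 70.1 to 140 in the MII libraries. Cnot6l over Cnot1 went from 1.1 to 2.85 to 9.91 to 29.7, the smallest shift of the 3. The denominator in MII is the 4 to 8 counts of Cnot1, so the exact size of these ratios is uncertain, and they were computed after the data were seen.

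**Figure D3:**
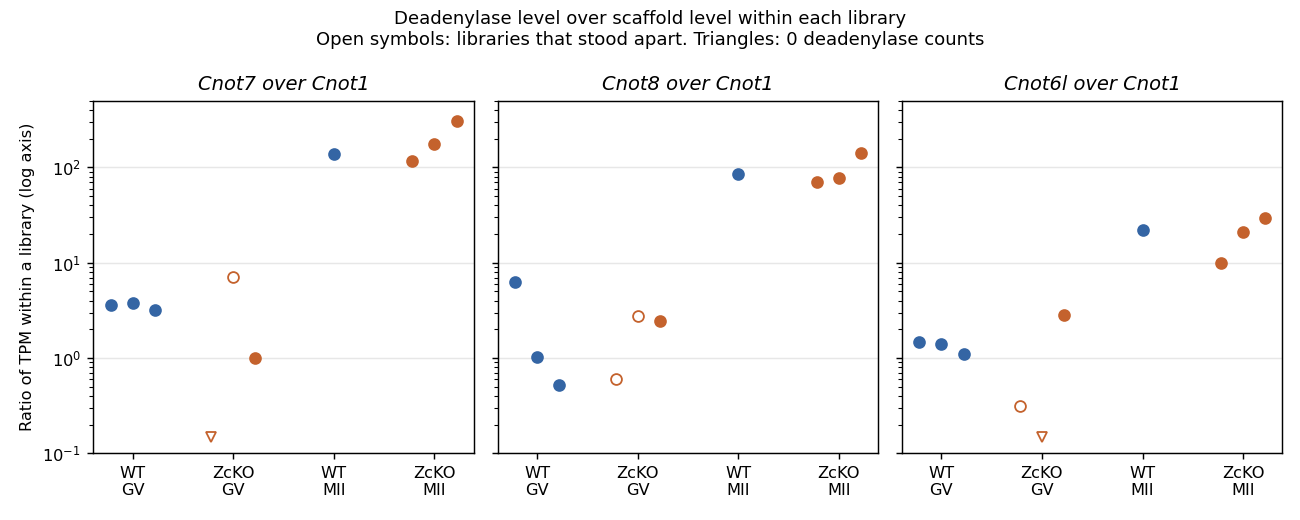
Ratio of the TPM of Cnot7, Cnot8 and Cnot6l to the TPM of Cnot1 within each library (log axis); open symbols are libraries that stood apart, and WT MII replicate 2 is absent because Cnot1 had 0 counts there. For Cnot7 the filled GV points lie between 1.01 and 3.77 and the MII points between 116 and 304.

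The rise was present within each genotype once the doubted libraries were left out. In WT (3 GV libraries against MII replicate 1), 5 genes of 8 tested rose, beside 20.9% of 3264 genes, and Cnot1 alone fell, beside 23.9%. The log2 changes were 3.19 for Btg4, 3.18 for Cnot7, 1.97 for Cnot6l, 3.40 for Cnot8, 3.30 for Pabpn1l and -2.03 for Cnot1, with adjusted p-values from 1.6e-07 to 0.0201 (edgeR); the lone MII library is assumed to vary like the GV libraries. DESeq2 did not call Cnot6l (adjusted p = 0.143) or Cnot1 (adjusted p = 0.257) in this set, and without WT GV replicate 2 Cnot1 was lost (adjusted p = 0.0865, edgeR). With WT MII replicate 2 included, 0 of 4 genes tested passed in WT, where 0.293% of 2045 genes passed (edgeR). At an unadjusted p under 0.05 it was 1, Pabpn1l (edgeR). DESeq2 called 2 of the 4, 1 higher and 1 lower in MII, beside 2.3% higher and 41.3% lower of the 2045 genes. Without WT MII replicate 1 the only WT MII library was replicate 2, in which the list had 0 counts. The median log2 change was then -6.66 for the 4 list genes tested and -6.85 for all 2455 genes tested. In Nat10-ZcKO, all 6 libraries gave 4 risers among 6 genes tested, beside 9.98% of 2225 genes, and 0 fell, beside 6.56%. The log2 changes were 4.63 for Btg4, 4.37 for Cnot7, 3.50 for Cnot8 and 3.50 for Pabpn1l, with adjusted p-values from 0.0165 to 0.0308 (edgeR). Leaving out any 1 of the 3 Nat10-ZcKO MII libraries ended all 4 calls. In those fits no gene passed at all, 0 of 3037, 0 of 3168 and 0 of 3136 tested (edgeR). With Nat10-ZcKO GV replicate 3 as the only GV library, the same 4 genes rose among 9 tested, beside 19.0% of 3741 genes, and 0 fell, beside 19.6%.

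Whether the stage change differs between genotypes was tested as an interaction. With all 11 libraries 0 of the 9 genes tested passed, where 0.802% of 3863 genes did, and over the 8 libraries it was also 0 of 9, where 0.0% of 4029 genes passed (without adjustment edgeR had 211 higher and 77 lower, and DESeq2 called 0). The largest value over the 8 libraries was that of Cnot7, whose log2 change was higher by 3.16 in Nat10-ZcKO (SE 0.98, unadjusted p = 0.00312, adjusted p = 0.403, edgeR), and that of Btg4 was higher by 2.08 (SE 0.77, adjusted p = 0.56, edgeR). They rest on the 2 counts of Cnot7 and 13 of Btg4 in Nat10-ZcKO GV replicate 3. From all 11 libraries, leaving out WT MII replicate 1 left WT MII represented only by the library in which the list had 0 counts. The median interaction on the log2 scale was then 7.98 for the 9 list genes tested and 5.44 for all 5532 genes tested.

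At the GV stage the question is whether loss of Nat10 altered occupancy before maturation. Btg4 had 23.6, 135 and 46.9 CPM in the 3 Nat10-ZcKO libraries and 222 to 330 CPM in WT, so the groups did not overlap (means 68.6 ± 59.0 and 291 ± 60.3 CPM, SD, n = 3 each). Of 2445 genes with at least 50 counts, 11.9% had all Nat10-ZcKO GV libraries below all WT ones. The exact two-sided permutation p was 0.1, the smallest that 3 against 3 can give. In the fit of all 6 libraries the log2 difference was -1.95 (SE 0.70, adjusted p = 0.905, edgeR), and none of the 2 genes of the list that were tested passed, where 0.0% of 1765 genes did (without adjustment 70 were higher and 23 lower; DESeq2 called 3 genes, none of the list). With Nat10-ZcKO GV replicate 3 alone against WT, Btg4 was lower by a log2 difference of -2.41 (SE 0.47, adjusted p = 0.00207, edgeR), 1 of 7 genes tested and beside 1.03% of 3879 genes. DESeq2 did not call it there (adjusted p = 0.12), and a single library stands for the genotype.

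The share of oocyte markers was not alike in the 3 Nat10-ZcKO GV libraries. Per 1000 counts on the 12 oocyte markers, Btg4 had 6.18, 3.05 and 4.41 counts in WT GV and 0.437 in Nat10-ZcKO GV replicate 3, whose markers took 10.7% of counts. In Nat10-ZcKO GV replicate 2 it had 9.5, above WT, with 7 Btg4 counts, and replicate 1 had 1 Btg4 count and 6 marker counts. Relative to oocyte markers, therefore, only replicate 3 of the 3 was below WT. The part of the markers in the Btg4 difference was not tested.

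At MII the genotypes were not told apart for any gene of the list. Over all 5 libraries 0 of 6 genes tested passed, where 0.191% of 2097 genes did, and without WT MII replicate 2 it was 0 of 8, where 0.205% of 2924 genes did (edgeR at an adjusted p under 0.05; 0 of these genes of the list at an unadjusted p under 0.05, and none by DESeq2). Against WT replicate 1 the log2 difference was -0.41 for Btg4 (SE 0.49), 0.46 for Cnot7 (SE 0.50), -0.23 for Cnot6l (SE 0.61), 0.11 for Cnot8 (SE 0.51) and 0.35 for Pabpn1l (SE 0.49). The other 3 were Cnot2 at -0.29 (SE 0.94), Cnot3 at 1.40 (SE 0.80, adjusted p = 0.991, edgeR) and Zfp36l2 at -1.23 (SE 1.43). Cnot3 had 44.5 CPM in WT replicate 1, below all 3 Nat10-ZcKO MII libraries. A p that misses the threshold with 1 usable WT MII library does not show that the genotypes were alike. With WT MII replicate 1 left out of the 5 libraries, Nat10-ZcKO was set against the library in which all 10 had 0 counts. The median log2 difference was then 7.85 for the 8 list genes tested and 6.52 for all 2809 genes tested.

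Around the 10 genes, 51 other genes of deadenylation, decapping, RNA-binding adaptors, poly(A) binding and exonucleolytic decay were listed. Over 11 libraries 22 could be tested, of which 4 rose (Dcp1a, Pan2, Angel2 and Pabpn1) and 4 fell (Eif4enif1, Pabpc1l, Skiv2l and Paip2) from GV to MII, beside 12.0% and 21.2% of all genes tested. Over the 8 libraries 24 could be tested, of which 10 rose, 7 fell and 7 did not pass (edgeR), beside 30.4% and 33.9% of all genes tested. The fallers thus made up no larger a share of this list than of all genes in either fit. The median log2 change of the 24 was 0.85, beside -0.14 over all 3094 genes tested. Without the doubted libraries 8 rose and 6 fell of 23 in WT (20.9% and 23.9% of all genes), and 8 rose and 5 fell of 26 in Nat10-ZcKO (19.0% and 19.6%). With them it was 0 of 14 in WT (edgeR; 0.293% of all genes) and 3 that rose of 19 in Nat10-ZcKO (9.98% of all genes), Dcp1a, Pan2 and Angel2. The values by class that follow are over the 8 libraries. Only the 8 genes just named for the 11 libraries passed in both fits; the other 9 (Pan3, Noct, Edc4, Patl2, Paip1, Paip2b, Ythdf3, Ythdf2 and Ttc37) did not pass over 11, with adjusted p-values from 0.0863 to 0.317 (edgeR).

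Of the 6 genes tested in the class of other deadenylases, which includes partners and relatives, 4 rose and 2 did not pass. Over 11 libraries it was 2 of 4 that rose. Pan2, the nuclease of the PAN2-PAN3 complex, which trims long tails ahead of CCR4-NOT, had a log2 change of 2.88 (SE 0.35), and its partner Pan3 1.01 (SE 0.43). Angel2, a relative of the CCR4 nucleases, rose by 2.86 (SE 0.53), and Noct, another relative, by 1.61 (SE 0.43). Parn, at -0.57 (SE 0.79), and Angel1, at -0.69 (SE 0.61), did not pass.

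Of 4 genes of the decapping class, 2 rose and 2 fell; over 11 libraries it was 1 and 1 of 5. Dcp1a, the activator of the decapping enzyme, rose by 3.04 (SE 0.29) and the decapping scaffold Edc4 by 1.02 (SE 0.29). Eif4enif1, which encodes the eIF4E-binding repressor 4E-T, fell by 3.15 on the log2 scale (SE 0.32), and Patl2, an oocyte repressor of translation, fell by 2.04 (SE 0.63).

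Of 5 poly(A)-binding genes and their partners, 2 rose and 3 fell; over 11 libraries it was 1 and 2 of 5. Pabpc1l, the poly(A)-binding protein of oocytes and early embryos, fell by 3.06 (SE 0.42). Paip2 and Paip2b, which displace PABP from the tail, fell by 2.03 (SE 0.51) and 2.22 (SE 0.43). Paip1, which promotes PABP-driven translation, rose by 1.10 (SE 0.26) and nuclear Pabpn1 by 2.35 (SE 0.42). At GV, Pabpc1l was lower in Nat10-ZcKO GV replicate 3 than in WT by a log2 difference of -1.40 (adjusted p = 0.0133, edgeR), 1 of 28 genes of this list beside 1.03% of all genes, where the lone library is assumed to vary like the WT ones. Over all 6 GV libraries it did not pass (adjusted p = 0.905, edgeR).

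Of 5 RNA-binding adaptors tested, 1 rose, 1 fell and 3 did not pass, and over 11 libraries 0 of 4 passed (edgeR). Ythdf3, an m6A reader, rose by 1.86 (SE 0.47), and Ythdf2, the reader that brings CCR4-NOT to m6A-marked mRNAs, had a log2 change of -1.38 (SE 0.53). Tnrc6b, the microRNA adaptor, had 1.24 (SE 0.55) and did not pass over both genotypes, but it passed in Nat10-ZcKO without the doubted libraries (log2 change 2.03, adjusted p = 0.0239, edgeR). Of the SKI complex, which feeds the exosome, Skiv2l had -1.92 (SE 0.51) and Ttc37 had 1.25 (SE 0.53).

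**Figure D4:**
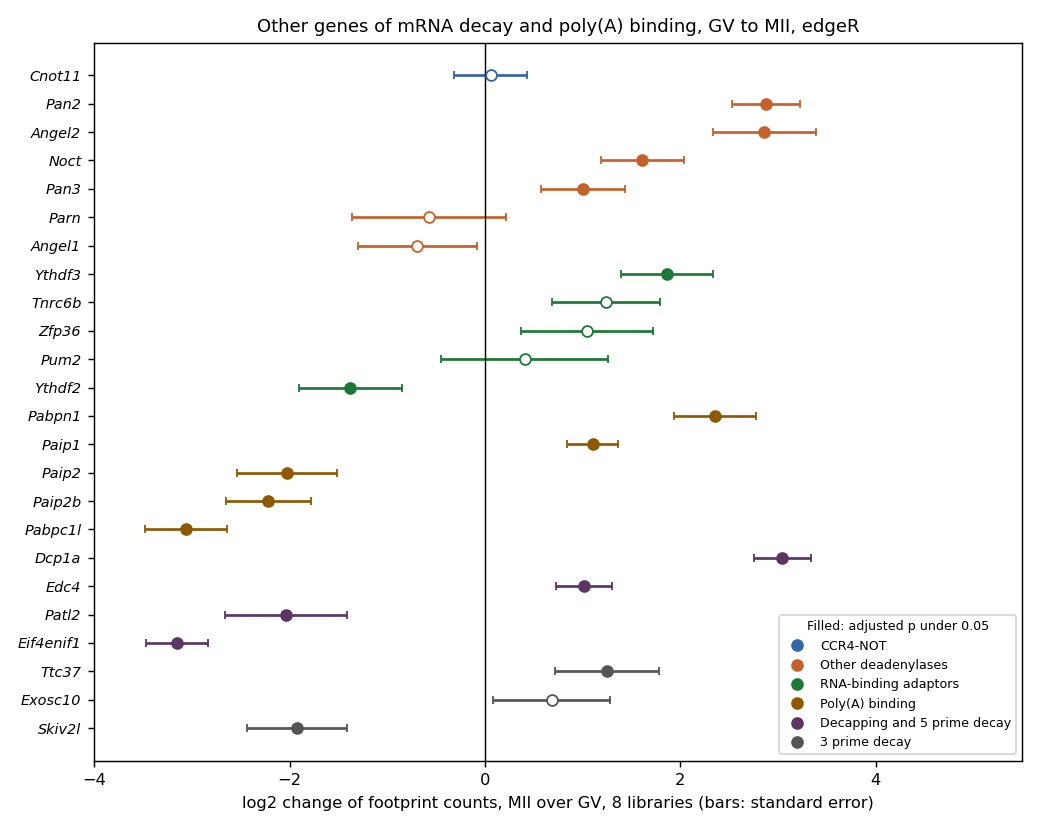
Log2 change of RPF counts from GV to MII over 8 libraries for the 24 other genes that could be tested, with standard errors, grouped by class; filled points passed an adjusted p of 0.05. Dcp1a, Pan2 and Angel2 lie near 3 and Eif4enif1 and Pabpc1l near -3.

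The genes whose pattern was most like that of Btg4 were found by Pearson's r of log2 CPM over the 8 libraries among 2991 genes, as a description, since all pairs share the libraries and the split into GV and MII. They were Dusp1, a MAP kinase phosphatase (r = 0.997), Zfp957, a zinc finger gene (0.991), Tada1, a subunit of the SAGA complex (0.986), 9530068E07Rik (0.984) and Eps8, an actin regulator (0.984). Dusp1 had 53.7 to 72.8 CPM in WT GV, 14.4 CPM in Nat10-ZcKO GV replicate 3, and 225 to 407 CPM in the 4 MII libraries. Like Btg4, it had its lowest value of the 8 in Nat10-ZcKO GV replicate 3 (4 counts), which its choice by r over the same libraries favours. Within the list, Cnot7 came 49th (r = 0.958), Pabpn1l 150th (0.930), Cnot8 279th (0.902) and Cnot6l 555th (0.831), and Cnot1 had r = -0.74.

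The acRIP-seq libraries addressed whether these mRNAs are recovered with an antibody to N4-acetylcytidine (ac4C), the mark that NAT10 writes. There was 1 library per antibody, so no comparison has a replicate check, and 95% intervals cover counting error only. The anti-ac4C library held 970997 counts on genes and the IgG library 116232, with a further 17.1% and 46.7% of fragments on no gene. Of the 9 genes of the list with a ratio, 1 had an ac4C/IgG ratio of CPM above 2, beside 32.8% of the 4680 genes with at least 50 counts in total, whose median ratio was 1.27.

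Btg4 was well counted, with 578 counts (595 CPM) in the anti-ac4C library and 104 counts (895 CPM) in IgG, a ratio of 0.665 (95% interval 0.539 to 0.828). Cnot8, at 0.465 (0.27 to 0.845), was also below 1. Cnot1 was the gene above 2, at 2.30 (1.32 to 4.38) from 250 and 13 counts, followed by Pabpn1l at 1.87 (1.13 to 3.32), Cnot3 at 1.61 (1.14 to 2.34) and Cnot6l at 1.55 (1.08 to 2.30). Cnot7, at 1.08 (0.74 to 1.63), and Cnot2, at 1.04 (0.645 to 1.77), had intervals that include 1, as had Cnot6 at 0.612 (0.296 to 1.42). Zfp36l2 had 6 counts against 0, which gives no ratio. The scale depends on how the libraries are set against each other: counting fragments on no gene into the library size put Btg4 at 1.03, Cnot6l at 2.41 and Cnot1 at 3.58, and setting the median gene to 1 put them at 0.524, 1.22 and 1.81. Each of these scalings multiplies all ratios by 1 constant, so they move the genes together and leave their order as it is. The anti-ac4C library was the deeper one, and the IgG counts of 9 to 35 behind the ratios of Cnot6, Cnot7, Cnot6l, Cnot1, Cnot2, Cnot3, Cnot8 and Pabpn1l set their precision.

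**Figure D5:**
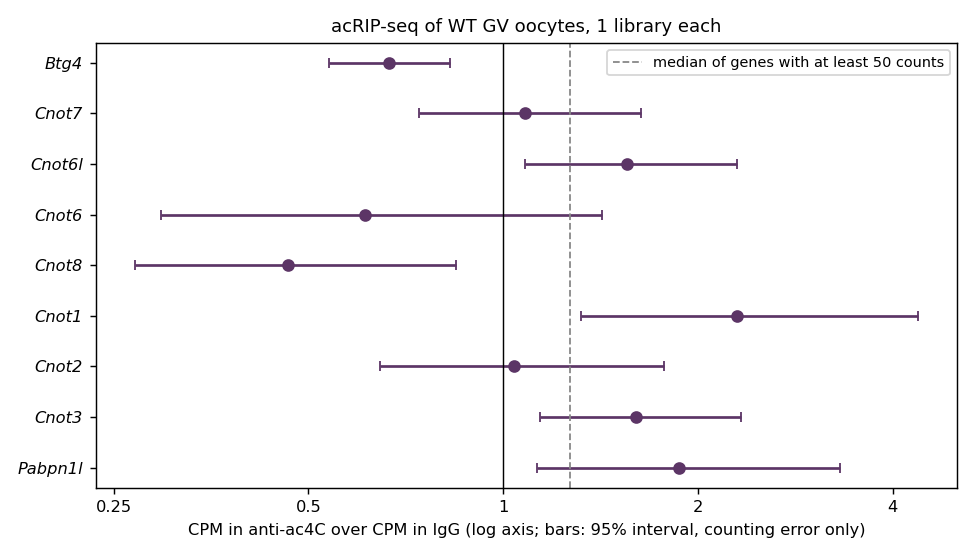
Ratio of CPM in the anti-ac4C library to CPM in the IgG library of WT GV oocytes (log axis) for 9 genes, with 95% intervals that cover counting error only; the dashed line is the median of genes with at least 50 counts. Btg4 (0.665) and Cnot8 (0.465) lie below 1 with their intervals, and Cnot1 (2.30) is the highest.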

How the data were processed

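Libraries were grouped by GEO's labels. The authors deposited counts per gene, on the CDS for Ribo-seq and on protein-coding genes for acRIP-seq, as whole numbers without normalization; the submitters' notes name cutadapt, STAR, HTSeq and mm10, and the handling of PCR duplicates is not given in the sources used here. Identifiers were matched to GENCODE M21 (GRCm38), and 22399 of 22442 matched. TPM used the union of CDS segments. The 10 genes, the related list and the doubted libraries were chosen with earlier results of these data known. Tests used edgeR 4.0.16 (R 4.3.3: filterByExpr, TMM, glmQLFit, glmQLFTest, prior count 0.125, Benjamini-Hochberg adjustment over all genes tested, threshold 0.05); standard errors are the log2 change over the square root of F. Intervals on counts and their ratios are exact at 95%. Alternatives were DESeq2 1.42.0, library size scaling, other filters, a replicate block and left-out libraries. Further fits without the doubted libraries, and the ratios within a library, were added after the data were seen. Steps were tested on simulated data. Named genes are the 10, Nat10, related genes past the test in a GV to MII fit, and the 5 most like Btg4; Parn, Angel1 and the sequence windows were chosen afterwards. Same-numbered libraries did not deviate together (correlations -0.0224 to 0.131). Python 3.11.15, numpy 2.4.6, scipy 1.17.1 and pandas 2.3.3 were used.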

Additional observations from a re-analysis of the deposited data

How the results depend on the processing

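Over all 11 libraries, the count of genes called from GV to MII was 993; it was 1802 with DESeq2, 264 with no filter, 260 with the replicate block, 1989 without the doubted libraries and 224 to 1437 with each library left out. Of the list, 6 were called, 0 with no filter, 1 with the replicate block (Cnot8; Btg4 had adjusted p = 0.11, edgeR) and 0 to 6 with each library left out; over 8 libraries the replicate block left 5, without Cnot1 (log2 change -1.47, adjusted p = 0.0817, edgeR). In WT, 6 genes were called; it was 891 with DESeq2 (47 up and 844 down, against 6 and 0), 997 with library size only (343 up and 654 down), 0 with no filter, 106 at a minimum of 50 counts, 0 with the replicate block, 60 with all libraries in one fit, 1463 without the doubted library and 37 to 1902 with each left out. Of the list, 0 were called there, against 2 with DESeq2, 3 with library size only, 1 at a minimum of 50 counts, 6 without the doubted library and 0 to 6 with each left out. In Nat10-ZcKO, 368 were called, 789 with DESeq2, 170 with the replicate block, 1445 without the doubted libraries and 0 to 780 with each left out; of the list 4, and 0 to 6. Without the doubted libraries, DESeq2 called 500 in WT and 634 in Nat10-ZcKO, and leaving out a further library gave 1200 to 2039 over both genotypes (list 4 to 6), 1092 to 1398 in WT (5 to 6) and 961 to 1519 in Nat10-ZcKO (4).

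For Nat10-ZcKO against WT at GV, 0 genes were called, against 3 with DESeq2, 41 with no filter, 13 with the replicate block, 23 with all libraries in one fit, 78 without the doubted libraries (of the list 1) and 0 to 380 with each left out; without the doubted libraries DESeq2 called 6 (of the list 0) and leaving out a WT library gave 68 to 100. At MII, 4 genes were called, against 9 with DESeq2, 44 with library size only, 0 with no filter, 15 at a minimum of 50 counts, 0 with the replicate block, 19 with all libraries in one fit and 0 to 1451 with each left out (list 0 to 6, the 6 without WT MII replicate 1); without the doubted library DESeq2 called 2 and leaving out a library gave 0 to 11. The interaction had 31 calls, 48 with library size only, 10 with no filter, 8 with the replicate block, 0 without the doubted libraries and 0 to 1209 with each left out (list 0 to 5); without the doubted libraries it had 2 with the replicate block and 0 to 2 with each left out. Members with an ac4C/IgG ratio above 2 were 1, 2 with TMM, 4 with fragments on no gene and 0 with the median set to 1. The cause of these shifts was not tested.

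Reversed signs belong to values that did not pass: Cnot2 (-0.0215 with DESeq2), Cnot3 (0.65 without the doubted libraries, -0.65 to 0.44 with each of 11 libraries left out and -0.28 to 1.56 with each of 8 left out), and Zfp36l2 over 8 libraries (-0.65 with the replicate block, -0.13 to 1.58 with each left out). The block could not be fitted for comparisons within a genotype or stage once the doubted libraries were out, nor could an arm without its last library. Libraries of a group share replicate numbers only as names. The limit of depth is that GV values of Cnot7, Cnot8 and Cnot6l rest on 0 to 18 counts.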
